A study of Mus musculus with 6 samples.

Results

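Vnn1 and Vnn3 encode vanins, and the chromatin around them was described here in the S1 segment of the mouse kidney proximal tubule. The deposited peak lists hold stretches of open chromatin found by ATAC-seq, an assay whose transposase reaches and tags DNA that is not packed into closed chromatin. Every peak whose summit, its highest point, lay in the body of Vnn1 or Vnn3 or within 50 kb of either gene was taken, and overlapping peaks of different libraries were merged into 1 element. This gave 16 elements of the 126099 merged regions of the whole study, from 93 summits. The locus was chosen by its measured values, the ranks of its peaks in the Sham and UNx lists and their presence in each list, so the differences between operations at these elements are given as a description without a test.

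The 6 libraries came from wild-type (WT) male C57BL/6 mice from Taconic, aged 7 weeks, with no further allele or agent in either group. Tubules were taken 24 h after surgery, which was either a sham procedure (Sham, 3 libraries) or excision of a kidney, that is unilateral nephrectomy (UNx, 3 libraries). Each library was made from 3 hand-dissected tubule pieces of 200 to 300 µm, so it averages over few cells. Whether the 3 libraries of a group are 3 different mice is not given in the labels, so the p-values below measure the spread between these libraries, which may be technical. In bulk tubules, a change in the cells present and a change in chromatin per cell cannot be told apart.

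Vanins are pantetheinases: they split pantetheine, a breakdown product of coenzyme A (CoA), into pantothenate (a B vitamin from which CoA is made again) and cysteamine, a small thiol. Vnn1 is anchored on the outer face of the cell membrane, is abundant in proximal tubule epithelium, and is a known target of PPARA, the nuclear receptor that turns on genes of fatty acid oxidation. Vnn3 encodes a related mouse pantetheinase and lies next to Vnn1.

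In genome build GRCm38, Vnn3 (ENSMUSG00000020010.7) lies on the plus strand of chromosome 10 from 23851462 to 23869843 and has 7 exons. Vnn1 (ENSMUSG00000037440.8) follows on the same strand from 23894688 to 23905343, also with 7 exons, and 24844 bp separate the end of Vnn3 from the start of Vnn1. Of the 16 elements, 8 lay upstream of Vnn3, 0 in Vnn3, 3 between the genes, 2 in Vnn1 and 3 downstream of Vnn1. Elements are named below by the distance of their strongest summit from the start of Vnn1. The 5 described in full are an element 57.9 kb upstream (14680 bp upstream of Vnn3), one 9.6 kb upstream, one at the start, one in intron 1, and one 11.2 kb past the start, which is 517 bp beyond the end of the gene.

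The summit sequences of the 4 elements outside the untranslated regions are shown because the receptor that controls Vnn1 is known to bind repeats of AGGTCA. The part of these sequences in the ranks below was not tested. Each is 201 bp of the RefSeq GRCm38.p6 assembly, plus strand, centred on the strongest summit. Capitals mark matches, on either strand, to AGGTCA (the core bound by nuclear receptors), CAAAGTCCA (a string of HNF4 sites), TGANTCA and GGAAGT (ETS family). TGANTCA is a loose pattern for AP-1, the Jun and Fos family, and accepts any base at its centre. The −57.9 kb element is shown at chr10:23836682-23836882, the −9.6 kb element at chr10:23884972-23885172, the intron 1 element at chr10:23895487-23895687 and the +11.2 kb element at chr10:23905760-23905960.
−57.9 kb element: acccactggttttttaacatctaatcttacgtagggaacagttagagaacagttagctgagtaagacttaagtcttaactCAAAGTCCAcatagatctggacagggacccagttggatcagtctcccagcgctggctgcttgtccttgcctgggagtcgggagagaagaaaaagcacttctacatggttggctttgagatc
−9.6 kb element: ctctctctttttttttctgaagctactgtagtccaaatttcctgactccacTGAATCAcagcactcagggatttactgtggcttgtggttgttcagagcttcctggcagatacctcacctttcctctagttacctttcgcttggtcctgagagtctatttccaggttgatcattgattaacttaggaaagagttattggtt
Intron 1 element: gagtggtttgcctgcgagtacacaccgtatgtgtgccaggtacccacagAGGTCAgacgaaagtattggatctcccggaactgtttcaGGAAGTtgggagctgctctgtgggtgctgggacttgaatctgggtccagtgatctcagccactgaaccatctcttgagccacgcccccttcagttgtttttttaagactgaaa
+11.2 kb element: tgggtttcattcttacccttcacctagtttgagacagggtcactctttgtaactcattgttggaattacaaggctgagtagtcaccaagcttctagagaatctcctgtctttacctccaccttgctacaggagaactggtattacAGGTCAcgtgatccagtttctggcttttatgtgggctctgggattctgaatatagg

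The string AGGTCA lay 51 bp before the summit of the intron 1 element and 45 bp after that of the +11.2 kb element. It was present in 5 of the 16 elements and in 19.9% of the 99359 regions of the lists cut to equal length, searched in the same 201-bp windows. GGAAGT lay 12 bp before the intron 1 summit and was found in 13.9% of all regions. The −9.6 kb element held TGAATCA 49 bp before its summit, a match to the loose pattern TGANTCA through an A at its centre. That pattern occurred in 7.39% of all regions. The −57.9 kb element held CAAAGTCCA 20 bp before its summit, a string found in 2.28% of all regions. The start element, whose sequence covers untranslated exon and is not printed, held TGACTCA and the forkhead string TGTTTAC. The loose pattern TGANTCA, with any base at its centre, occurred in 3 of the 16 elements. The forkhead string occurred in 2 of the 16 and in 2.66% of all regions.

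The full PPAR-type site, a direct repeat of AGGTCA with 1 base between the copies, was matched within 2 mismatches in 0 of the 5 main elements and in 1 of the 16, against 7.12% of all regions. In windows of 250 bp on either side it was matched in 4 of the 16, against 11.6% of all regions. One of these was AGGTCAGAGGGCA, with 1 mismatch, at −117 bp from the summit of the +11.2 kb element. A match is a run of letters and was not tested as a binding site.

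Repeats were a feature of 3 of the 5 main elements. In the same windows, bases marked as repeats in the assembly made up 27.4% of the −9.6 kb element, 44.8% of the intron 1 element and 32.8% of the +11.2 kb element, while the −57.9 kb and start elements had 0%. The median over all regions was 0% and the upper quartile 12.9%. Repeat content of the intron 1 window was higher than in 94.8% of regions, and its part in the measured ranks was not tested. GC content was 42.3% at −9.6 kb, 51.7% in intron 1 and 44.3% at +11.2 kb, against a median of 51.7%.

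Peak strength was compared as a rank, because the lists differ in length and their values grow with a sequencing depth that is unknown. The 3 Sham lists had 77355 to 97834 peaks and the 3 UNx lists 93583 to 100999. Each list was cut to its 77355 strongest peaks by −log10 q, the significance the peak caller gave a summit within its own library. A percentile rank of 100 then marks the strongest peak of a list and 0 a region not among those peaks. The median −log10 q of the deposited lists ran from 12.1 in Sham 2 to 26.5 in UNx 3. Peaks were present in all 6 lists within 1 kb of the starts of 5 of 5 S1 proximal tubule markers (Slc5a2, Slc34a1, Lrp2, Cubn and Slc5a12), with Sham means of 80.5 to 96.2. The S3 marker Slc7a13, the distal markers Slc12a3 and Aqp2, and 3 of 3 immune markers had none in any list. Umod and Slc12a1, markers of the loop of Henle, had peaks in 6 lists. The mean rank at Slc12a1 was 56.9 ± 4.01 in Sham and 30.2 ± 9.70 in UNx (SD, n = 3 each). At Umod it was 65.4 ± 0.624 in Sham and 69.4 ± 4.65 in UNx, so these loop markers differed in direction. Their part in the values below was not tested.

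**Figure D1:**
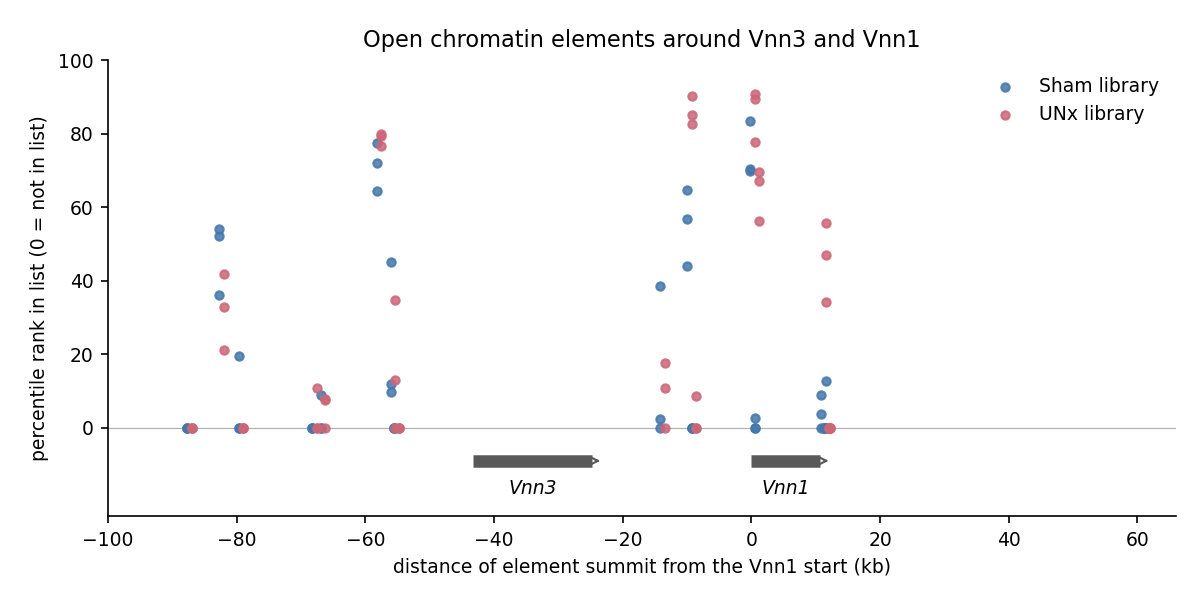
Percentile rank (0 to 100, vertical axis) of each of the 16 elements in each of the 3 Sham and 3 UNx libraries, by distance of the summit from the Vnn1 start in kb. Points of the 2 operations are shifted slightly to either side, grey bars with arrows are the genes, and the body of Vnn3 holds no element.

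Vnn3 had no peak of its own in these tubules. The 6 deposited lists held 0 summits in its 18382-bp body and 0 within 1 kb of its start, in Sham and UNx libraries alike. A stretch of 41206 bp around it held no element. Vnn1 had 19 summits in its body and 27 within 1 kb of its start over the 6 lists. A start without a peak was common: of 21938 protein-coding genes, 34.6% had no summit within 1 kb of a start in any list. Of the 10646 genes at least as long as Vnn3, 9.67% had none in the body or near the start.

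The element at the Vnn1 start was open in every library. It spanned 23894149 to 23895306, and its strongest summit lay 209 bp past the start, in the coding part of exon 1. Its percentile rank was 70.2, 83.4 and 69.9 in Sham libraries 1, 2 and 3 and 89.5, 77.7 and 90.7 in UNx libraries. The mean was 74.5 ± 7.69 in Sham and 86.0 ± 7.18 in UNx (SD, n = 3 each), and the groups overlapped because Sham 2 ranked above UNx 2. The difference of 11.5 points was 2.18 when peaks were ranked by fold enrichment (69.9 ± 10.4 and 72.1 ± 8.74; SD, n = 3 each) and 33.8 among the 20000 strongest peaks, with the groups overlapping in both. The −log10 q was 48.9, 37.0 and 48.3 in Sham and 77.8, 77.2 and 187.4 in UNx.

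Intron 1 of Vnn1, from 23895092 to 23897292, held an element that ranked at or near the bottom of every Sham list and in the upper part of every UNx list. It spanned 23895436 to 23896011, 129 bp beyond the end of the start element, with its summit 899 bp past the gene's start and 496 bp past the end of exon 1. Its rank was 2.56, 0 and 0 in Sham 1, 2 and 3 and 67.1, 56.3 and 69.7 in UNx 1, 2 and 3. The means were 0.855 ± 1.48 and 64.3 ± 7.11 (SD, n = 3 each), a difference of 63.5 points with no overlap. Of the 74781 regions present in at least 3 lists, 5 had a larger difference.

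The rank of 0 in Sham did not always mean that a peak was missing. The deposited lists of Sham 1 and Sham 3 held the intron 1 element as a weak peak, with a −log10 q of 6.62 and 5.60 and a fold enrichment over the caller's background of 3.32 and 3.13. The Sham 2 list, the shortest, held no peak there. In UNx the −log10 q was 33.9, 38.9 and 83.2 and the fold enrichment 6.77, 6.14 and 6.63. The 3 UNx peaks had closely similar fold enrichment while their −log10 q differed. The 5 summits lay within 47 bp of each other, so the lists that held the element placed it at the same site. When peaks were ranked by fold enrichment, the mean was 0 in Sham and 45.2 ± 6.93 in UNx (SD, n = 3).

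**Figure D2:**
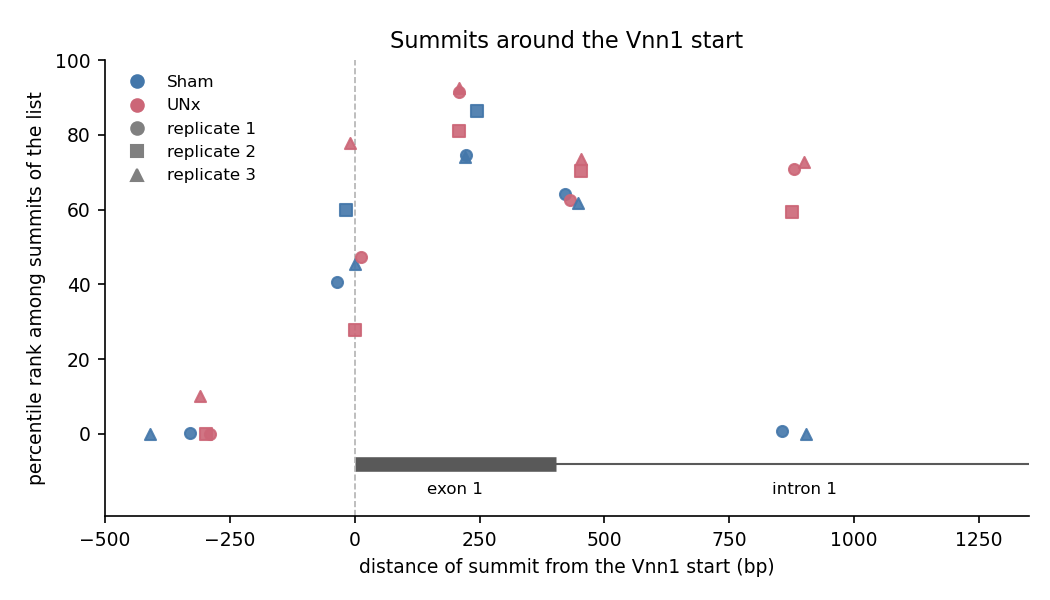
Percentile rank of each summit among the summits of its list (vertical axis) against its distance from the Vnn1 start in bp, for the start and intron 1 elements; colour gives the operation and marker shape the replicate. Summits near +215 bp are high in all 6 libraries, while those near +879 bp are high in the 3 UNx libraries and near 0 in the 2 Sham libraries that have one.

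The start region held several separate summits. Summits were ranked among the 105829 strongest of each list, the number in the shortest list. The strongest group, 215 bp past the start, lay within 36 bp in all 6 lists and had means of 78.4 ± 6.99 in Sham and 88.4 ± 6.36 in UNx (SD, n = 3 each). Summits 4 bp before the start, in all 6 lists, had means of 48.6 ± 10.04 and 50.9 ± 25.2. Summits 447 bp past the start, just inside intron 1, were absent from Sham 2 and otherwise ranked 64.3 and 61.7 in Sham and 62.6, 70.3 and 73.6 in UNx. Weak summits at −304 bp occurred in 1 Sham and 3 UNx lists. Within a list, the start element exceeded the intron 1 element by 67.7, 83.4 and 69.9 points in Sham and by 22.4, 21.4 and 21.0 points in UNx.

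The −9.6 kb element, from 23884539 to 23885564 in the intergenic stretch between the genes, ranked 64.8, 44.1 and 56.8 in Sham 1, 2 and 3. In UNx libraries 1, 2 and 3 it ranked 90.2, 82.5 and 84.9. The means were 55.2 ± 10.4 and 85.9 ± 3.89 (SD, n = 3 each), a difference of 30.7 points, and every UNx library ranked above every Sham library. Fold enrichment was 10.6, 5.67 and 9.48 in Sham and 13.9, 12.1 and 14.3 in UNx. The called interval was wider as well, at 470, 379 and 430 bp in Sham and 652, 651 and 1026 bp in UNx, while the main summit stayed within 45 bp across the 6 lists. Median interval widths of the lists were 375, 342 and 374 bp in Sham and 353, 363 and 422 bp in UNx.

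The +11.2 kb element, from 23905543 to 23906127, lay between the end of Vnn1 and Taar1, a trace amine receptor gene that starts 14496 bp further on. It ranked 8.79, 3.72 and 0 in Sham and 46.9, 34.1 and 55.8 in UNx libraries 1, 2 and 3. The means were 4.17 ± 4.41 and 45.6 ± 10.9 (SD, n = 3 each), a difference of 41.4 points without overlap, and 217 of the 74781 regions had a larger one. All 6 deposited lists held it, with a fold enrichment of 4.99, 3.34 and 4.35 in Sham and 8.44, 7.31 and 11.4 in UNx. When peaks were ranked by fold enrichment, the means were 16.8 ± 6.88 in Sham and 63.8 ± 12.6 in UNx (SD, n = 3 each). That difference of 47.0 points was larger than the 45.2 points of the intron 1 element in the same ranking. Its summits were spread over 75 bp.

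The −57.9 kb element, from 23835868 to 23837380, was intergenic, between the end of Slc18b1 (a vesicular polyamine transporter) and the start of Vnn3. It ranked 77.4, 64.4 and 72.1 in Sham and 76.5, 80.0 and 79.4 in UNx libraries. The means were 71.3 ± 6.56 and 78.6 ± 1.84 (SD, n = 3 each), and the ranges overlapped, since Sham 1 lay above UNx 1. By fold enrichment every UNx library ranked above every Sham library, with means of 63.3 ± 6.90 and 73.8 ± 0.218 (SD, n = 3 each). At 1513 bp it was the widest element of the locus, with 2 main summit groups at −58481 and −57902 bp from the Vnn1 start, each found within 27 bp in all 6 lists.

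**Figure D3:**
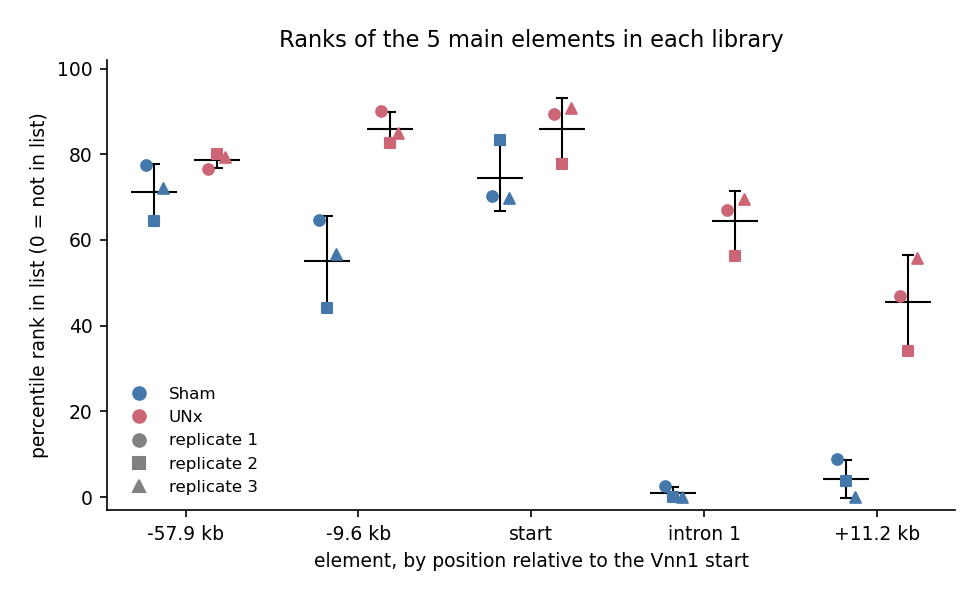
Percentile rank (vertical axis) of the 5 main elements in each library, with marker shape for the replicate, black dashes for group means and bars for SD (n = 3). The −9.6 kb, intron 1 and +11.2 kb elements have every UNx point above every Sham point, and the other 2 overlap.

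The order of the elements within the locus differed between the lists of the 2 operations. Among the 5 main elements, the Sham means ran from the start (74.5) and −57.9 kb (71.3) elements, which did not differ beyond their SDs, to the −9.6 kb element (55.2), the +11.2 kb element (4.17) and the intron 1 element (0.855). In UNx, by −log10 q, the start (86.0) and −9.6 kb (85.9) elements were level within their SDs. The −57.9 kb (78.6), intron 1 (64.3) and +11.2 kb (45.6) elements followed. The rank of the −9.6 kb element minus that of the −57.9 kb element in the same list was −12.7, −20.3 and −15.3 points in Sham and 13.6, 2.55 and 5.57 points in UNx. The Sham order of these elements held for ranks by −log10 q only: by fold enrichment their Sham means were level, at 63.0 ± 12.6 and 63.3 ± 6.90 (SD, n = 3 each), and the −9.6 kb element was the higher of them in Sham 1 and 3. The UNx order also changed by fold enrichment. The −9.6 kb element (86.2 ± 5.42) was then above the −57.9 kb (73.8 ± 0.218) and start (72.1 ± 8.74) elements. The +11.2 kb element (63.8 ± 12.6) was above the intron 1 element (45.2 ± 6.93, SD, n = 3 each). By −log10 q, the strongest element of the locus was the one at −57.9 kb in Sham 1 and 3, the start in Sham 2 and UNx 3, and the one at −9.6 kb in UNx 1 and 2.

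In none of the other 11 elements were the groups apart. The strongest of them, with a mean over the 6 libraries of 39.6 that exceeded those of the intron 1 (32.6) and +11.2 kb (24.9) elements, lay in an intron of Slc18b1, 82.4 kb upstream of Vnn1, and ranked 36.0, 52.1 and 53.9 in Sham and 32.7, 21.2 and 41.9 in UNx. Its means were 47.3 ± 9.88 and 31.9 ± 10.4 (SD, n = 3 each), so its mean was lower in UNx while those of the 5 main elements were higher. The element at −55.7 kb had means of 22.2 ± 19.8 in Sham and 15.9 ± 17.5 in UNx, and that at −13.8 kb had 13.6 ± 21.6 and 9.41 ± 8.82 (SD, n = 3 each). The remaining 8 were in at most 3 deposited lists, were 150 to 340 bp wide and ranked no higher than 19.4 in any library. Over all 16, 5 elements were in all 6 deposited lists and 9 were in at least 3 lists of equal length, the filter for testing; 3 were absent from those lists and 4 were in 1 or 2.

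In 3 of the 16 elements every UNx rank was above every Sham rank, in 0 the reverse held, and 13 overlapped or were absent. Without Sham 1 or without UNx 3, 1 element, that at −82.4 kb, had every UNx rank below every Sham rank. Only an element in at least 3 lists of equal length can separate in this way, and 9 of the 16 were. Over all 74781 regions that passed the same filter, 12.0% had every UNx rank above every Sham rank and 11.7% the reverse. The locus was picked for such differences, so nothing is read from its share. The 3 elements lay within 20788 bp of each other, from 9616 bp upstream of the Vnn1 start to 517 bp past its end. The first of them, at −9.6 kb, was also 15229 bp past the end of Vnn3. At the edges of the locus, the nearest element inside the window upstream ranked 0 in all 6 libraries. The nearest one outside it, 3134 bp further upstream at 23798130 to 23798476 in Slc18b1, ranked 0, 18.6 and 0 in Sham and 62.9, 31.6 and 50.2 in UNx. Downstream, the last element inside had means of 4.28 in Sham and 0 in UNx, and the first outside ranked 0 in all 6.

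**Figure D4:**
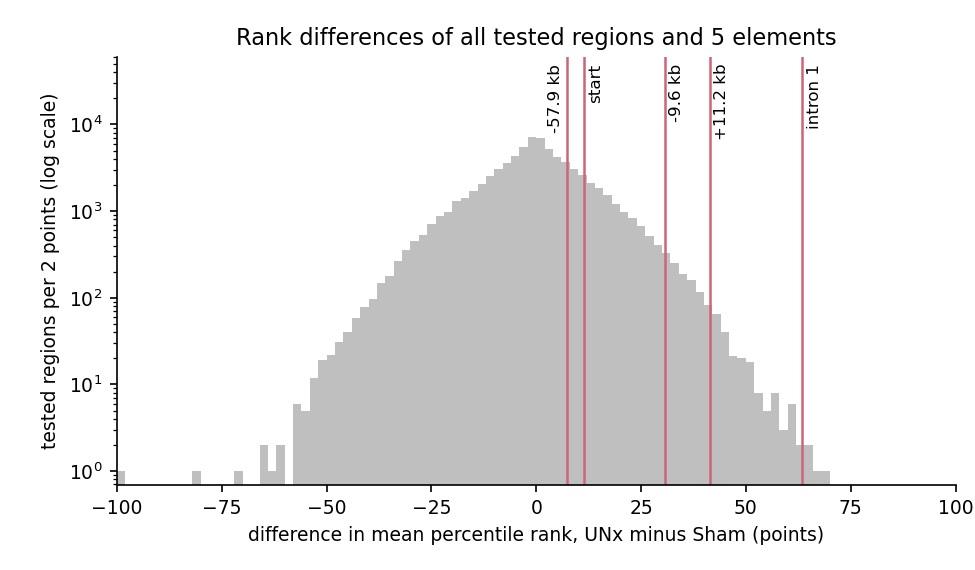
Difference in mean percentile rank, UNx minus Sham, for the 74781 tested regions (horizontal axis, points), with the number of regions per bin of 2 points on a log scale. Red lines mark the 5 main elements, of which the −57.9 kb and start elements lie in the bulk and the intron 1 element at 63.5 points lies near the right end.

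The spread of differences over all regions gives the scale for these values. The median difference was −0.0112 points, and the central 95% of regions lay between −27.6 and 27.4 points. The median SD within a group was 8.45 points. With limma (two-sided, Benjamini-Hochberg adjustment over all regions, threshold 0.05), 589 regions (0.788%) differed between UNx and Sham, 325 (0.435%) higher and 264 (0.353%) lower. This count was lower whenever a library was left out, which also leaves fewer samples for the fit. It was 73, 96 and 35 without Sham 1, 2 and 3 and 31, 382 and 48 without UNx 1, 2 and 3. It was 22 with all deposited peaks and 3 when peaks were ranked by fold enrichment.

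Some regions elsewhere in the genome had ranks like those of the Vnn1 elements over the 6 libraries. The region most like the intron 1 element, by Euclidean distance over the 6 ranks, lay at 78463139 to 78464089 on chromosome 10, 1395 bp from the start of Pdxk (pyridoxal kinase), at a distance of 6.21 points. It ranked 6.85, 0 and 0 in Sham and 69.4, 52.7 and 68.2 in UNx. The next 4 had Igf1r, Igsf3, Lhpp and Tob2 as nearest protein-coding starts, at distances of 8.60, 12.1, 15.04 and 15.7 points. Those most like the start element were nearest to Manba, Pisd and March8, at 5.37, 6.64 and 6.88 points.

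None of the promoters tested among genes that work with vanins, or lie beside them, passed the test between the operations. A promoter was the strongest tested region within 1 kb of a gene's start, and 5 lists held 76 genes, of which 59 had one. Hadha and Hadhb shared the same region, which is counted for each gene. With limma, adjusted over all 74781 regions, 0 of 59 passed the threshold of 0.05. At an unadjusted p under 0.05 there were 10 (16.9%), against 18.6% of all regions. Beside the median of −0.0112 over all regions, list medians lay between −3.27 and 0.128 points.

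Genes that make and break down CoA from pantothenate had open promoters in all 6 lists, 16 of 16, with 8 means higher and 8 lower in UNx and a median difference of 0.00711 points. Enpp3, an ectoenzyme that breaks down extracellular nucleotides, had a mean rank of 58.3 ± 4.70 in Sham and 74.6 ± 3.88 in UNx (SD, n = 3 each). Every UNx library was above every Sham library, as in 12.0% of all tested regions. Enpp3 did not pass (limma adjusted p = 0.144). Nudt8, which hydrolyses CoA in mitochondria, had 93.5 ± 3.72 and 89.2 ± 1.80 (limma adjusted p = 0.303). The pantothenate kinases Pank1, Pank2 and Pank3, which start CoA synthesis, and the related Pank4 were among the 16 that did not pass.

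The relatives of the vanins in the nitrilase superfamily, 5 of 5 tested, had 1 mean higher and 4 lower in UNx, with a median of −3.27 points and 0 calls. Upb1, which acts at the end of pyrimidine breakdown, had 89.4 ± 3.50 in Sham and 78.2 ± 1.74 in UNx (SD, n = 3 each). It was lower in 3 of 3 UNx libraries than in any Sham library, as were 11.7% of all tested regions. Upb1 did not pass (limma adjusted p = 0.0801). Nadsyn1, the NAD synthetase, had 95.7 ± 0.795 and 92.9 ± 2.21 (limma adjusted p = 0.388).

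Genes that use cysteamine or make taurine and glutathione had 12 of 13 tested, 5 means higher and 7 lower, a median of −1.17 points and 0 calls. Slc6a6, the taurine transporter, had 89.9 ± 1.03 in Sham and 79.9 ± 5.16 in UNx (SD, n = 3 each; limma adjusted p = 0.105). Gclm, the modifier subunit of the enzyme that starts glutathione synthesis, had 96.1 ± 1.19 and 91.1 ± 0.887 (limma adjusted p = 0.133). Both were lower in all 3 UNx libraries than in any Sham library, as were 11.7% of all tested regions.

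Targets of PPARA had 22 of 23 genes tested, 13 means higher and 9 lower, a median of 0.128 points and 0 calls. The region shared by Hadha and Hadhb enters these counts for each gene. Pdk4, a kinase that switches off pyruvate dehydrogenase, had 94.2 ± 1.80 in Sham and 98.6 ± 0.694 in UNx (SD, n = 3 each). It was higher in 3 of 3 UNx libraries than in any Sham library, as were 12.0% of all tested regions. Pdk4 did not pass (limma adjusted p = 0.130), and its difference was −2.05 points when peaks were ranked by fold enrichment. Acot2, a mitochondrial thioesterase that releases CoA from fatty acids, had 90.6 ± 1.18 and 83.0 ± 3.15 (limma adjusted p = 0.136).

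The genes next to Vnn1 and Vnn3, within 500 kb on chromosome 10, mostly had no open promoter. Of 19, 14 had no summit within 1 kb of their starts in any list, all of them trace amine receptor (Taar) genes. Of the 4 tested, 1 mean was higher and 3 were lower in UNx, with a median of −2.99 points and 0 calls. Rps12, a ribosomal protein gene, had 85.9 ± 2.72 in Sham and 81.6 ± 4.01 in UNx (SD, n = 3 each; limma adjusted p = 0.496). Stx7, a syntaxin of late endosomes, had 81.0 ± 6.91 and 75.9 ± 4.21 (limma adjusted p = 0.571).

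**Figure D5:**
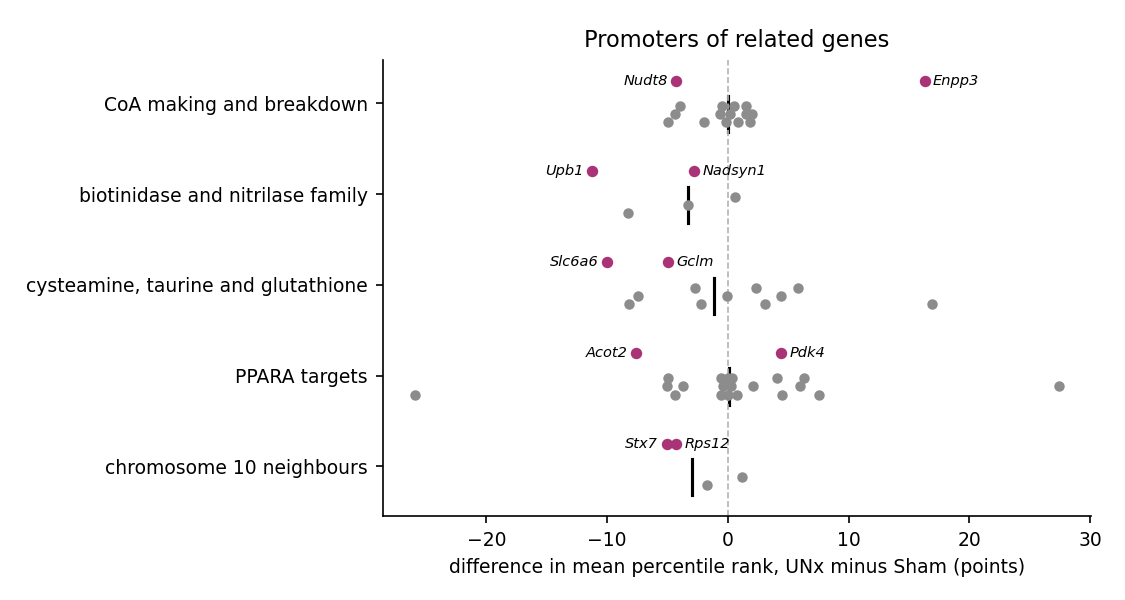
Difference in mean percentile rank, UNx minus Sham (points, horizontal axis), of each tested promoter in 5 gene lists; black bars are list medians and purple points the 2 genes of each list with the smallest unadjusted p. List medians lie between −3.27 and 0.128 points, and 0 of the 59 genes with a tested promoter passed the adjusted threshold.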

How the data were processed

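ATAC-seq peak lists of 6 libraries, 3 per operation, were used; each library was called separately. Per the submitters' processing notes, the authors used cutadapt 3.4, Bowtie, SAMtools, Picard and MACS2 2.2.7.1 with build mm10; the settings and the filter on the lists are not given in the sources used here. The authors' deposited values for a summit, each within 1 library, are its position, a −log10 p, a −log10 q, the fold enrichment, which is a ratio to the background, and a display score equal to 10 times the −log10 q without its decimals. They hold no read counts, so the depth is unknown and no counting interval is given.

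On chromosomes 1 to 19, X and Y, 1 peak was taken per interval with its strongest summit, lists were cut to 77355 peaks, and 99359 regions were made by merging intervals that shared 1 bp or more. Percentile ranks of the 74781 regions in at least 3 lists were compared with limma 3.58.1 in R 4.3.3 (trend and robust variance, two-sided), a step tested on simulated data. Genes came from GENCODE M21, sequence from RefSeq GRCm38.p6.

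Members, lists and motifs were chosen with earlier results of these data known. Elements described in full were those within 1 kb of a Vnn1 or Vnn3 start, the 3 of largest difference and the 3 of highest mean rank; of each gene list, the 2 genes of smallest p; and the regions most alike in rank, 5 for the intron 1 element and 3 for the start element. Alternatives were all deposited peaks, the 20000 strongest, a −log10 q of at least 5, ranking by fold enrichment, 50% overlap, windows around summits, normal scores, GC-corrected ranks, other variance settings, no filter, a replicate block, other window sizes and leaving out each library.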

Additional observations from a re-analysis of the deposited data

How the results depend on the processing

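The elements with every UNx rank above every Sham rank were 3 in the main ranks and 1 (the −9.6 kb element) with the 20000 strongest peaks, where the intron 1 and +11.2 kb elements were in no list; every other alternative run gave 3 or 4, and 3 to 4 with a library left out. Elements with every UNx rank below every Sham rank were 0, except 1 without Sham 1, without UNx 3 and in the 100 kb window. Without 1 library at a time, the intron 1 difference ran from 60.8 to 67.5 points. PPAR-type matches rose from 1 to 4 elements with 250 bp on either side. The 589 calls over all regions became 22 with all deposited peaks (17 higher, 5 lower), 2 with the 20000 strongest, 3 by fold enrichment, 1583 with normal scores, 2 with GC-corrected ranks (0 higher, 2 lower) and 2 with no filter on lists. They ran from 31 to 382 with a library left out, with 68 higher and 5 lower without Sham 1 and 3 higher and 28 lower without UNx 1. Related promoters past the threshold were 0, except 1 with normal scores (Pdk4, limma adjusted p = 0.0399, against 0.0399 to 0.867 over all its alternatives). The Pdk4 difference was −2.05 by fold enrichment. The cause of these shifts was not tested. The unknown depth limits every weak peak.

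Deviations from group means of the Sham and UNx libraries with the same replicate number correlated at 0.00819, −0.1002 and −0.0496 for numbers 1, 2 and 3. With 3 libraries per group, these values cannot settle whether a number stands for a shared animal, day or batch, which the labels do not give. With a replicate block the count was 56 (35 higher, 21 lower), and 0 with the block and GC-corrected ranks, with 12273 regions at an unadjusted limma p under 0.05; related promoters stayed at 0.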
